A study of Mus musculus with 16 samples.

Results

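Megakaryocyte-erythroid progenitors were taken here as lineage-depleted marrow cells that held transcripts of both Gata1 and Gata2 and little RNA of the fates beyond them. The members were chosen by their own measured counts of unique molecular identifiers (UMIs, 1 per captured RNA molecule). Cells in which 750 or more genes were found and mitochondrial UMIs did not exceed 10% were considered. Such a cell entered the gate with at least 1 UMI of Gata1 and 1 of Gata2, fewer than 5 UMIs each of Car1, Pf4 and Mpo, and 0 UMIs of Mcpt8, Prss34, Fcer1a, Ms4a2 and Epx. The gate held 665 of 94917 cells (0.701%), and the levels of these 10 genes are given only as a description. Of the 665 cells, 393 were assigned to 1 mouse by hashtag, 260 had no hashtag call and 12 were positive for both hashtags.

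GATA1 and GATA2 are zinc-finger transcription factors that bind the same DNA motif. GATA2 maintains stem and early progenitor cells, and GATA1 takes its place as cells mature toward red cells. KLF1 and FLI1 pull bipotent cells toward the erythroid and the megakaryocytic fate. IL1β signals through its receptor to NF-κB, which switches on its own inhibitors, among them IκBα (Nfkbia) and A20 (Tnfaip3).

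The study asked how chronic IL1β acts on marrow progenitors that lack Tet2, the enzyme that oxidises methylated cytosine. C57BL/6 mice, 4 per group and aged 6 to 12 weeks by the labels (the methods give a narrower range), received vehicle or 500 ng of recombinant IL1β per mouse per day intraperitoneally for 5 weeks. WT mice were Tet2fl/fl and Tet2-KO mice were Vav-Cre-Tet2-/-, in which Cre is driven by the pan-hematopoietic Vav promoter. Because only the KO mice carried Cre, its own effect cannot be told apart from that of Tet2 loss. The marrow was depleted of lineage-positive cells, and 2 hashtagged mice of the same group were pooled in each of 8 libraries.

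Gated cells were shallow, with a median of 3284 UMIs and 1550 genes against 5914 UMIs and 2157 genes over all cells. Each library held 47 to 110 gated cells. A total of 12 mice, 3 per group, had at least 10 assigned gated cells (10 to 58) and entered the gene tests, with 37416 to 266644 gated UMIs each. The hashtag calls went against sex-linked transcripts in 2 mice. Among cells with a UMI of either kind, Y-linked RNA without Xist was found in 67.3% for WT IL1β mouse 3 and 81.1% for WT vehicle mouse 2, while the other 14 mice stood at 0 to 0.496% or 99.6 to 99.9%. The cells given to WT IL1β mouse 3 thus came from mice of both sexes, and the count of genes called with and without it is given below. Only the pools of these 2 mice held mice of different sex. In every other pool both mice were of the same sex by these shares. A cell given to the wrong mouse would not show there, so the check says nothing about those pools. Across libraries 1739 barcode sequences occurred more than once, and 13 gated cells shared theirs with a cell of another library, none of which was gated.

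The GATA requirement left 6498 of 94917 cells and the exclusions left 665 of those. Of the 6498 cells with UMIs of both Gata1 and Gata2, 3674 exceeded the limit for Car1, an early erythroid carbonic anhydrase, 2675 held the basophil proteases Mcpt8 or Prss34, 1663 held Ms4a2, 1397 held Fcer1a, 1244 reached 5 UMIs of Mpo, 666 reached 5 UMIs of Pf4, a platelet chemokine, and 62 held Epx. At the edges of the gate, 54 members had 4 UMIs of Car1 and 69 otherwise matching cells had 5, 11 members had 4 UMIs of Pf4 against 7 cells with 5, and 6 members had 4 UMIs of Mpo against 6 cells with 5. In 227 members (34.1%) membership rested on a single UMI of each factor, and 69 members had at least 2 of both.

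Free RNA from other cells bears on such a gate. UMIs of both factors were present in 5 of 332 T cells (1.51%, exact binomial interval 0.491 to 3.48%; median 2815 UMIs) and in 1.67% of 24011 granulocyte progenitors (median 8196 UMIs), against 6.85% of all cells (median 5914 UMIs). With each cell thinned to 3000 UMIs, and cells that did not reach that depth left out, the shares were 1.89% of 159 T cells, 0.271% of 23579 granulocyte progenitors and 2.05% of 73910 cells in all. At matched depth the T-cell share was close to that of all cells, but it rests on 3 cells. The full gate held 0 of 332 T cells (interval up to 1.10%) and 0 of 24011 granulocyte progenitors (up to 0.0154%), against 0.701% of all cells. The T-cell interval covers the share of all cells, and the rule's limit on Mpo also bears on granulocyte progenitors. Mcpt8 or Prss34 was found in 22.9% of the T cells and 36.0% of the granulocyte progenitors, so the requirement of 0 UMIs can also remove cells of other types. The intervals cover counting error only.

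The label fitted the markers in part. Gated cells held RNA of early erythroid and early megakaryocytic genes, and platelet genes were low or at 0. The 20 erythroid genes summed to 3864 CPM in gated and 3600 CPM in all other cells, the heme synthesis genes to 629 and 808 CPM, and the 19 megakaryocyte genes to 1050 and 619 CPM. The 4 adult globin genes summed to 1481 CPM in gated cells (UMIs per 1000000 UMIs of all gated cells; 82.3 to 2936 by library) against 2805 CPM in all others. Klf1, the erythroid master regulator, was detected in 26.9% of gated cells at 123 CPM (25.8% of other cells), Gfi1b, a repressor needed by both lineages, in 28.4% at 94.3 CPM (20.8%), and Epor, the erythropoietin receptor, in 15.5% at 58.0 CPM (17.6%). Itga2b, which encodes CD41, was detected in 39.1% at 174 CPM (16.8%). The platelet genes Ppbp and Tubb1 had 0 UMIs in the 665 cells, which allows a share of up to 0.451% of cells with a UMI for each. Of the stem and multipotent genes Meis1, a homeobox cofactor, reached 210 CPM in gated cells and 38.9 CPM in all others, while Procr, which marks long-term stem cells, had 3 UMIs.

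The gate was set beside the cells just outside its limits. The same rule with Car1 at 5 UMIs or more gave 2132 cells, called Car1-high cells below, with a median of 10979 UMIs, and with Pf4 at 5 UMIs or more it gave 362 Pf4-high cells. Klf1 stood at 189 CPM in Car1-high, 123 CPM in gated and 2.80 CPM in Pf4-high cells. Itga2b ran the other way, at 7.22, 174 and 1693 CPM. Summed over 20 erythroid genes the level was 6548, 3864 and 1215 CPM in the same order, and over 19 megakaryocyte genes it was 182, 1050 and 12743 CPM, with 3 of the 19 at 0 in gated cells. The 16 stem and multipotent genes summed to 326 CPM in Car1-high, 1219 CPM in gated and 983 CPM in Pf4-high cells, so gated cells were highest in that list. The lineage transcription factors summed to 2131, 3572 and 3502 CPM. This sum counts Gata1 and Gata2, which the rule requires and whose CPM a single UMI raises more in shallow cells, so no order is drawn from it. These levels partly follow from the limits on Car1 and Pf4.

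Among genes outside the rule that reached 50 CPM in gated cells and were higher there in all 8 libraries, and leaving out mitochondrial, ribosomal, globin, immunoglobulin and predicted genes, the largest ratios of gated to other cells were those of St8sia6, a sialyltransferase (69.8 against 8.35 CPM, 8.36-fold), Apoe, the lipid carrier (752 against 101 CPM, 7.44-fold), and F2r, the thrombin receptor (116 against 16.2 CPM, 7.19-fold). Slc22a3, Gnb4, Slc18a2, Ctla2a, Meis1 and Angpt1 were among the next, at 4.76- to 6.64-fold. Of these, F2r (247 CPM), Ctla2a (1009), Meis1 (272) and Angpt1 (249) stood higher still in Pf4-high cells, against 116, 410, 210 and 207 CPM in gated cells. Apoe was detected in 78.3% of gated cells, and the limit on Mpo, Car1 and Pf4 was not tested as a source of these ratios.

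Markers of both fates were found in the same cell for a minority of members. Klf1 and Itga2b were both detected in 42 cells, Klf1 alone in 137, Itga2b alone in 218 and neither in 268, where 70.0 double-positive cells would follow from independence. Klf1 and Meis1 were both detected in 46 cells against 81.6 from independence, and Car2 and Meis1 in 253 against 253. Cpa3, of the basophil and mast-cell list, was detected with Slc18a2 in 73 cells against 47.4, with Itga2b in 55 against 46.5 and with Klf1 in 20 against 32.0. Klf1 was detected with Slc18a2 in 49 against 71.3 and with F2r in 50 against 63.3, and Meis1 with F2r in 124 against 107. Slc18a2 stood at 149 CPM in gated, 8.22 in Car1-high and 58.2 in Pf4-high cells. The cells differ in depth and library, and these counts were not tested.

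Clustering of 653 gated cells, leaving out those positive for both hashtags, gave 6 clusters, which are described by number because they were drawn from the same counts. Cluster 1 (170 cells, 26.0%) was led by Serpina3g and Cd34, with Itga2b at 365, Meis1 at 448 and Klf1 at 28.5 CPM. Cluster 2 (160 cells, 24.5%) was led by Csrp3, Ifitm1 and Slc45a3, with Klf1 at 151 and Car1 at 562 CPM. Cluster 3 (123 cells, 18.8%) was led by mitotic genes such as Cenpf and Ube2c, with Mki67 at 1219 CPM. Cluster 4 (93 cells, 14.2%) was led by Rhd, Fam132a and Ermap, with Klf1 at 243, Car2 at 3482 and Meis1 at 8.07 CPM and a median of 8680 UMIs. Cluster 5 (93 cells, 14.2%) was led by Jchain, Mzb1 and Cd74 together with the immediate early genes Fos and Egr1. Cluster 6 (14 cells, 2.14%) was led by the neutrophil genes Camp, S100a8, S100a9 and Ngp. Leading genes rest on UMIs summed over a cluster. In the whole gate only 3 cells held 100 or more UMIs of Jchain and every other cell at most 3, so its lead does not describe most cells of cluster 5. Clusters 1 to 5 drew cells from all 8 libraries and cluster 6 from 6.

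**Figure D1:**
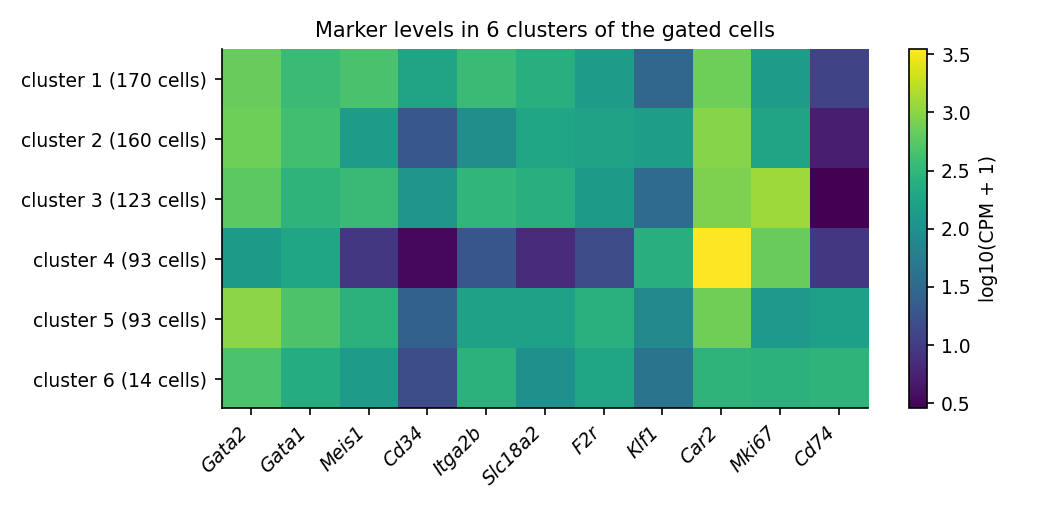
Level of 11 genes in the 6 clusters of gated cells, as log10(CPM + 1) over the summed UMIs of each cluster. Itga2b and Meis1 were high in clusters 1 and 3 and low in cluster 4, where Klf1 and Car2 were highest.

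Some gated cells carried RNA of other cell types. A total of 14 cells held 112 to 2937 UMIs summed over 8 neutrophil genes, while every other gated cell held at most 8 and the median cell 1, and 3 cells held at least 100 UMIs of Jchain, a plasma-cell gene, against at most 3 in the others. These 17 cells divided as 4 in WT vehicle, 7 in WT IL1β, 3 in KO vehicle and 3 in KO IL1β. Per mouse the summed level of the 17 granulocyte and monocyte genes outside the rule was 18580, 661 and 20480 CPM in WT vehicle, 4862, 1176 and 2679 in WT IL1β, 19441, 321 and 349 in KO vehicle and 6297, 1079 and 946 in KO IL1β. Of the 12 basophil and mast-cell markers 5 were at 0, 4 of them by the rule, and the summed level was 162 to 383 CPM by library. The gene tests over mice below use all gated cells assigned to the tested mice, and calls that changed without these 17 cells are named where they concern a gene or list described. Of the 17 cells 13 were assigned to a mouse, 1 of them to KO vehicle mouse 2, which was not in those tests. Leaving the 17 cells out thus removed only the remaining assigned cells from the fit.

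**Figure D2:**
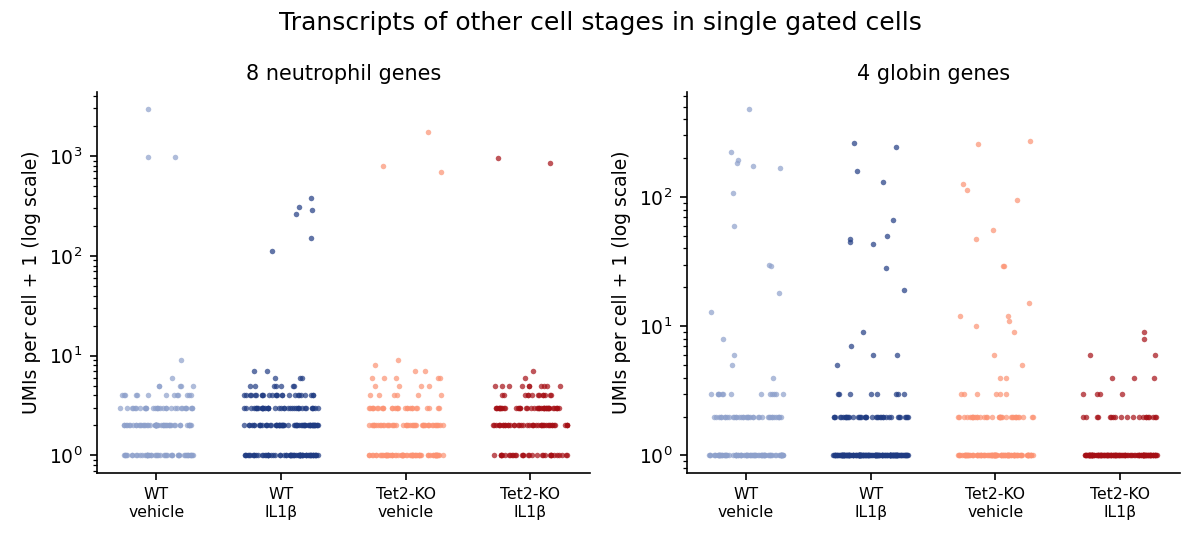
UMIs per gated cell, plus 1 and on a log axis, of 8 neutrophil genes (left) and of 4 globin genes (right), 1 point per cell. A total of 14 cells stood above 100 neutrophil UMIs, and no KO IL1β cell held more than 8 globin UMIs.

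The share of gated cells in each mouse was lower in WT mice given IL1β than in WT mice given vehicle, and lower in KO than in WT mice under vehicle, but neither difference passed adjustment over the 4 comparisons. Gated cells made up 0.697, 0.716, 0.827 and 0.914% of cells in the WT vehicle mice and 0.575, 0.402, 0.627 and 0.563% in the WT IL1β mice. The KO vehicle mice had 0.617, 0.0794, 0.646 and 0.667%, and the KO IL1β mice 0.140, 1.29, 0.391 and 0.859%. The WT groups did not overlap, WT and KO vehicle mice did not overlap, and the KO IL1β mice lay both below and above all WT mice. In WT the share fell from 0.789% ± 0.101 to 0.542% ± 0.0969 (SD, n = 4 each; difference -0.247 percentage points, two-sided exact permutation p = 0.0286, the smallest that 4 against 4 allows; adjusted p = 0.0571), and the KO vehicle mean of 0.502% ± 0.283 lay below that of WT vehicle (difference -0.286, exact permutation p = 0.0286, adjusted p = 0.0571). The differences in KO with IL1β (0.169) and between genotypes under IL1β (0.129) had exact permutation p-values of 0.629 and 0.657, both with an adjusted p of 0.657. With hashtags assigned by ratio the difference was -0.230 for IL1β in WT (4 against 3 mice, exact permutation p = 0.314). For genotype under vehicle it was -0.0809 (3 against 3 mice, exact permutation p = 0.70, the smallest possible being 0.100). In the main assignment the genotype difference under vehicle was -0.146 without KO vehicle mouse 2 (exact permutation p = 0.0857), and it was -0.106 with pools. By ratio KO vehicle mouse 2 had 51 gated of 7506 cells (0.679%) and the KO IL1β mice ran from 0.388 to 0.770%. That assignment left WT vehicle mouse 1 with 76 cells in place of 4159. It left KO IL1β mouse 2 with 350 in place of 4485, of which 2 were gated (interval 0.0693 to 2.05%). Y-linked RNA without Xist was then found in 62.6% for WT vehicle mouse 2 and 84.5% for WT IL1β mouse 3. The low share and the wide spread thus depended on the assignment, and which was nearer the truth was not tested. Thinning to 3000 UMIs gave -0.225 and -0.314. It left out the cells that did not reach that depth, keeping 73910 of 94917 cells over all libraries, of which 375 were gated. These values therefore cover the deeper cells only. Taking whole pools as replicates turned the WT difference to 0.0130, and requiring 2 UMIs of each factor turned it to 0.0234 and the genotype difference under vehicle to 0.0322. The single gated cell of KO vehicle mouse 2 was one of the neutrophil-rich cells.

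**Figure D3:**
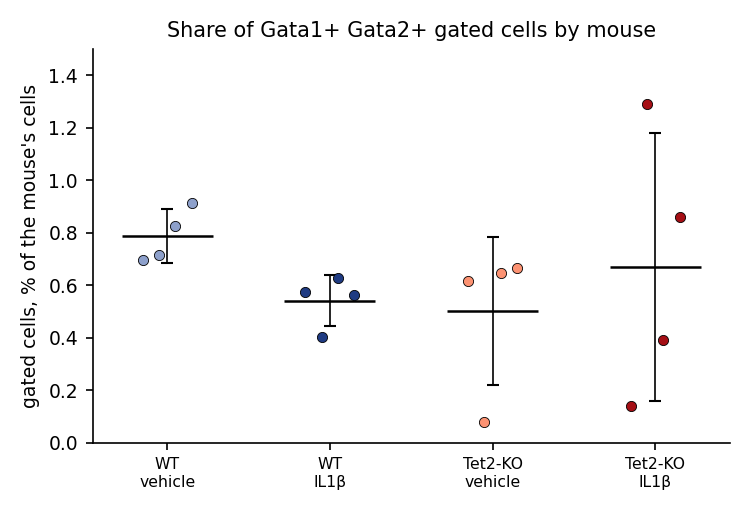
Gated cells as a percent of each mouse's cells. Points are mice, horizontal lines means and bars SD (n = 4 per group). KO vehicle mouse 2 (0.0794%) lay apart from its group, and the KO IL1β mice ran from 0.140 to 1.29%. With hashtags assigned by ratio these were 0.679% and 0.388 to 0.770%, where KO IL1β mouse 2 had 2 gated of 350 cells.

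Nfkbia, an inhibitor of NF-κB, and the activation antigen Cd69 rose with IL1β in gated cells of both genotypes under every alternative that tested them, Tnfaip3 was called in both with calls that were lost in some alternatives, and 18 ribosomal protein genes were called lower in WT and 1 in KO (35 and 6 without the 17 cells). Of 2525 genes tested, 7 were called higher (0.277%) and 21 lower (0.832%) with IL1β in WT (1.11% in all; edgeR quasi-likelihood test, adjusted p under 0.05), and 7 higher (0.277%) and 3 lower (0.119%) in KO (0.396% in all). For every called gene the 3 IL1β mice lay wholly above or below the 3 vehicle mice, a separation that was also present in 7.96% of all genes upward and 11.1% downward in WT, and in 11.0% and 11.6% in KO. WT IL1β mouse 3 and KO vehicle mouse 1 weighed on these counts, since WT calls came to 8 without the former and 65 without the latter. The KO calls ran from 2 to 86 when 1 mouse was left out (86 without KO vehicle mouse 1) and came to 3 with sex as a covariate. By sex-linked transcripts, 2 of the 3 KO vehicle mice but 1 of the 3 KO IL1β mice in the fit were male. Without the 17 cells rich in neutrophil genes or Jchain, 56 genes were called in WT and 29 in KO, and these held all 28 and all 10 of the calls made with all cells.

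Values per mouse are given as CPM over the UMIs of the 2525 tested genes, scaled by the trimmed mean of M-values (TMM). Nfkbia (chr12:55489410-55492647, minus strand, GRCm38), which encodes the NF-κB inhibitor IκBα, stood at 36.8, 31.7 and 50.8 CPM in the WT vehicle mice and 251, 642 and 425 in the WT IL1β mice. In KO it stood at 52.0, 21.8 and 36.2 with vehicle and 327, 623 and 317 with IL1β. Every IL1β mouse was several-fold above every vehicle mouse, and the log2 difference was 3.26 (SE 0.44, edgeR adjusted p = 0.00115) in WT and 3.45 (SE 0.44, adjusted p = 5.8e-04) in KO. The interaction with genotype was 0.19 (SE 0.71, adjusted p = 0.999).

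Tnfaip3 (chr10:19000910-19015657, minus strand), which encodes the ubiquitin-editing enzyme A20, rose from 24.5, 10.6 and 33.9 to 193, 91.8 and 182 CPM in WT (log2 difference 2.78, SE 0.59, edgeR adjusted p = 0.0230). The KO vehicle mice held 26.0, 0 and 0 CPM and the KO IL1β mice 111, 71.8 and 111 (3.72, SE 0.77, adjusted p = 0.0314). Its call was lost in 6 of 22 alternatives in WT, among them leaving out WT IL1β mouse 3 (adjusted p = 0.191), and in 9 of 22 in KO. Its 91 UMIs over the 12 mice limit the precision of both values.

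Cd69 (chr6:129267325-129275436, minus strand), an early activation antigen that retains cells in tissue, had the largest difference among the genes called in WT. It stood at 36.8, 106 and 16.9 CPM with vehicle and 724, 551 and 527 with IL1β in WT (3.53, SE 0.56, edgeR adjusted p = 0.00320), and at 169, 14.5 and 181 against 645, 1126 and 808 in KO (2.92, SE 0.49, adjusted p = 0.0114). Nfkbia and Cd69 passed the threshold in both genotypes under every alternative in which they were tested, with adjusted p up to 0.0214 and 0.0251 for Nfkbia and up to 0.0269 and 0.0482 for Cd69.

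The promoters of Nfkbia and Tnfaip3 are shown because both genes rose in both genotypes and encode inhibitors of NF-κB. Each runs from 250 bases before to 50 after a RefSeq start site (GRCm38.p6), 5′ to 3′ on the gene's strand. Capitals mark matches, on either strand, to the letters GGGAA, any 3 bases and CC, which read GG, any 3 bases and TTCCC on the other strand. These letters are not the accepted NF-κB binding sequence. Marked stretches can fall outside it, and stretches that fit it can be unmarked. The Nfkbia window is chr12:55492598-55492897 (minus strand), and the 2 Tnfaip3 windows are chr10:19015361-19015660 and chr10:19011914-19012213 (minus strand).
Nfkbia promoter: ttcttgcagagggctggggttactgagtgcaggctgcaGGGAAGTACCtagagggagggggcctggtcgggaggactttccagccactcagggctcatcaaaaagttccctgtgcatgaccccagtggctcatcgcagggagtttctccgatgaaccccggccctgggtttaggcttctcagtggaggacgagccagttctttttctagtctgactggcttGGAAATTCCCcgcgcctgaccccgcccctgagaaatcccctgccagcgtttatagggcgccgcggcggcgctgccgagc
Tnfaip3 upstream promoter: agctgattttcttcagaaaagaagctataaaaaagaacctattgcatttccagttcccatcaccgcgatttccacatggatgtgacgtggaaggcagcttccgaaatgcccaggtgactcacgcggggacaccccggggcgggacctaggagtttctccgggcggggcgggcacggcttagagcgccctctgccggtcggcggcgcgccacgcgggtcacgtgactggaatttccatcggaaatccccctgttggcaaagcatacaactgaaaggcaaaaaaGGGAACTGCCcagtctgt
Tnfaip3 downstream promoter: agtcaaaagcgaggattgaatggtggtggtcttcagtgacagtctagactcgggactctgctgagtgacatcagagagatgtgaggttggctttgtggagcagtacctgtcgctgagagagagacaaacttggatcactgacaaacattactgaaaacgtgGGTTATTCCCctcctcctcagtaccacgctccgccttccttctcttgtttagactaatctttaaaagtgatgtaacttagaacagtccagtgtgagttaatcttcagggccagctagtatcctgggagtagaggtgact

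The Nfkbia window held 2 matches, GGGAAGTACC and GGAAATTCCC, and each Tnfaip3 window held 1, GGGAACTGCC and GGTTATTCCC. The same letters occurred in 1899 of 32851 RefSeq promoters of this length (5.78%), in 3 of the 9 promoters of genes called higher with IL1β in WT and in 3 of the 5 of those in KO, Cd69, mt-Co1 and mt-Co2 not being included. In both sets the 3 are the Nfkbia and Tnfaip3 windows shown. A match describes these letters only and by itself shows neither an NF-κB sequence nor a bound site. The shares above are shares of these letters only.

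Further genes were called higher in WT. Ier3, an immediate early gene that moderates NF-κB and ERK signalling, stood at 85.8, 42.2 and 42.3 CPM with vehicle and 396, 306 and 132 with IL1β (log2 difference 2.29, SE 0.53, edgeR adjusted p = 0.0414), a call lost in 10 of 23 alternatives. In KO it stood at 208, 36.3 and 121 against 212, 335 and 245 (1.17, adjusted p = 0.190). Tsc22d3, which encodes the glucocorticoid-induced leucine zipper GILZ, rose from 49.0, 52.8 and 16.9 to 241, 214 and 172 CPM in WT (2.43, SE 0.47, adjusted p = 0.0129), and its KO difference of 1.74 had an adjusted p of 0.0511 (1.76, adjusted p = 0.0318, without the 17 cells).

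Serpina3g, a protease inhibitor of hematopoietic progenitors whose reads may be shared with its close paralogs, was low in the WT vehicle mice and higher in each of the other 9. Its levels were 12.3, 31.7 and 8.47 CPM there, 154, 91.8 and 111 in WT IL1β, 143, 87.1 and 157 in KO vehicle and 147, 479 and 245 in KO IL1β. The IL1β difference in WT was 2.80 (SE 0.66, edgeR adjusted p = 0.0437), and the KO difference under vehicle was of the same size (2.78, SE 0.64) with an adjusted p of 0.920. The WT call was lost in 10 of 23 alternatives, among them leaving out WT IL1β mouse 3 (adjusted p = 0.126). Serinc3, a membrane protein of the SERINC family, passed the threshold in both genotypes with smaller differences than the genes above and lost its call in 17 of 24 alternatives in WT and 10 of 24 in KO. It spanned 745 to 929 CPM with vehicle and 1285 to 1535 with IL1β in WT (0.79, adjusted p = 0.0464), and 712 to 831 and 1298 to 1653 in KO (0.94, adjusted p = 0.0264).

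In KO alone Rsrp1, an arginine- and serine-rich protein, passed the threshold, at 546, 334 and 374 CPM with vehicle and 871, 1126 and 974 with IL1β (log2 difference 1.24, SE 0.24, edgeR adjusted p = 0.0264). Its WT values of 270, 274 and 339 against 415, 551 and 658 did not overlap either (0.86, adjusted p = 0.108), and its interaction of 0.38 (SE 0.35) had an adjusted p of 0.985. Among genes called lower in WT, the linker histone gene Hist1h1e fell from 245, 306 and 229 to 48.3, 30.6 and 70.9 CPM (-2.21, SE 0.45, adjusted p = 0.0152). Its KO mice held 77.9, 116 and 241 CPM with vehicle and 59.9, 71.8 and 127 with IL1β, so the KO groups overlapped. The transcripts of this gene that are not polyadenylated are not captured by the assay.

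**Figure D4:**
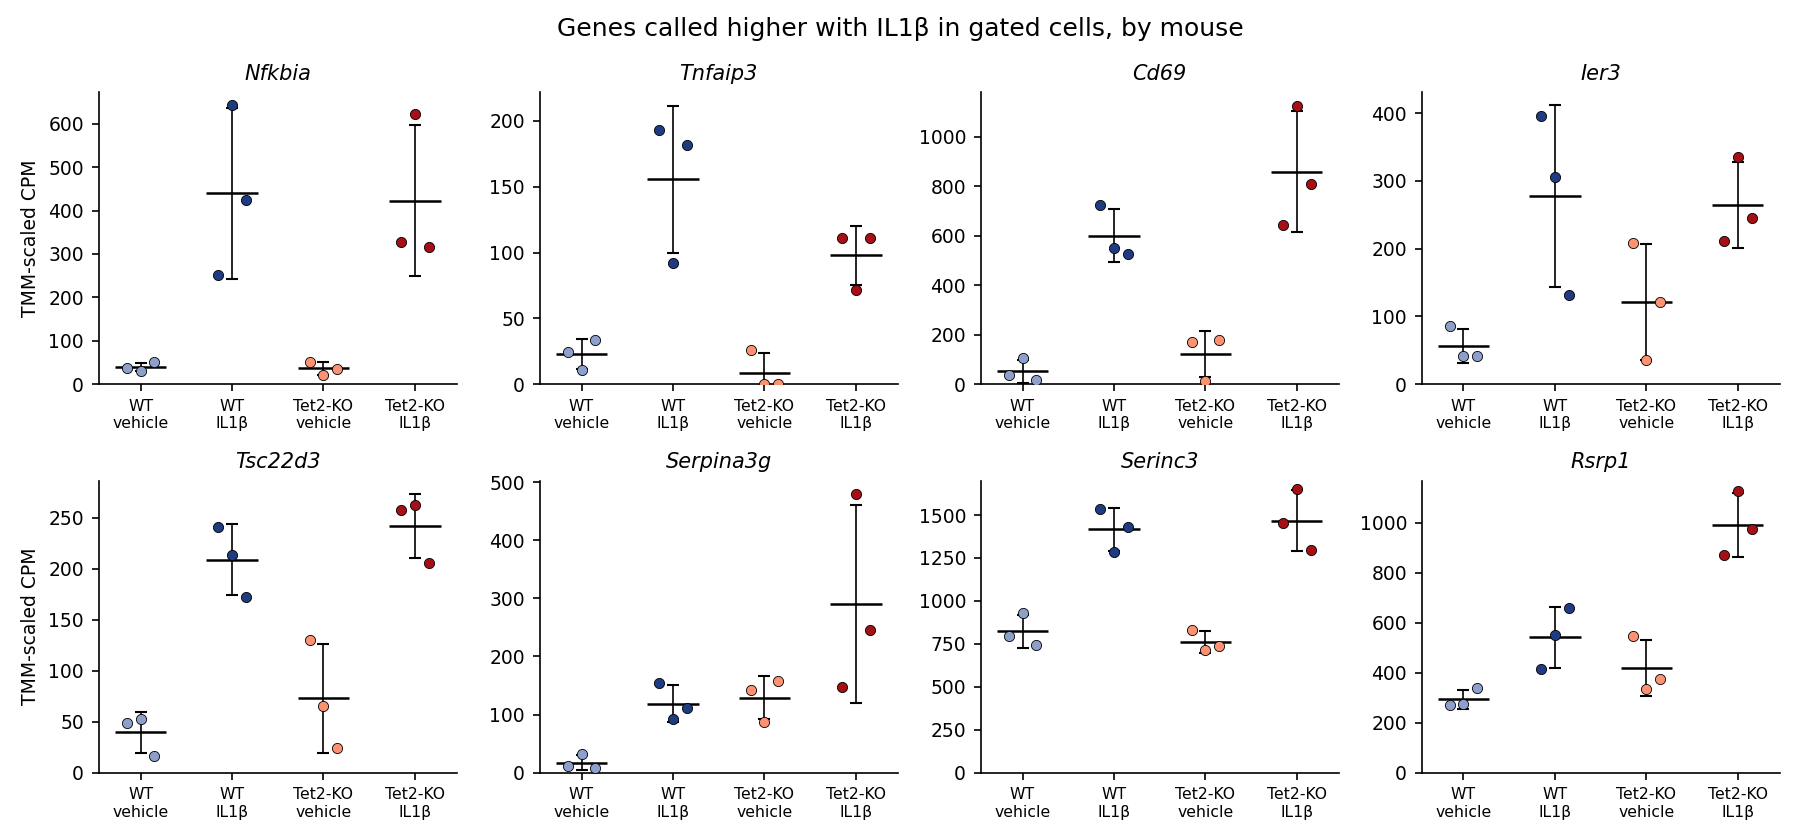
TMM-scaled CPM of the 8 named genes that were called higher with IL1β in at least 1 genotype, in gated cells. Points are mice, lines means and bars SD (n = 3 per group); 7 of the 8 genes were separated from vehicle in both genotypes, while Serpina3g overlapped in KO.

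The list of 20 IL1 and NF-κB pathway genes had 6 members with enough counts. In WT 5 of the 6 were fitted higher with IL1β and 2 were called (Nfkbia and Tnfaip3; median log2 difference 1.97, all genes 0.03), and in KO 6 of 6 were fitted higher with the same 2 called (median 1.48, all genes 0.01). Nfkb1, which encodes the p105 precursor of the p50 subunit, stood at 85.8, 106 and 152 against 232, 337 and 263 CPM in WT (1.16, adjusted p = 0.0706) and differed by 0.88 in KO (adjusted p = 0.139). Nfkbiz, an atypical nuclear IκB protein, differed by 3.27 in WT (adjusted p = 0.0619) and by 1.97 in KO (adjusted p = 0.219), and it was called in WT (4.20, SE 0.97, adjusted p = 0.0198) without the 17 cells. The receptor gene Il1r1 had 6 UMIs over the 12 mice and was not tested.

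Of the 28 genes called in WT, 18 were ribosomal protein genes, and the 3 others called lower were Hist1h1e, Tpt1 and Fau. Ribosomal proteins build the translation machinery, and Fau encodes a fusion of a ubiquitin-like protein with the ribosomal protein eS30. This list of 83 genes was added after values were seen. Ribosomal protein genes made up 31.8, 29.1 and 29.9% of gated UMIs in the WT vehicle mice and 26.3, 24.8 and 24.2% in the WT IL1β mice. They made up 28.0, 30.9 and 30.5% in KO vehicle and 25.4, 27.3 and 28.7% in KO IL1β mice. The WT groups were apart, the KO groups overlapped, and of 79 tested members 74 were fitted lower in WT (18 called, median -0.45) against 61 in KO (1 called, Rps15a, -0.65, adjusted p = 0.0264; median -0.22). The interaction was fitted above 0 for 71 of the 79 (median 0.22) with none called. Tpt1, the translationally controlled tumor protein gene, fell in WT from 6398, 5585 and 5581 to 4083, 3243 and 3556 CPM (-0.69, SE 0.12, adjusted p = 0.00639) and Fau by 0.76 on the log2 scale (-0.76, adjusted p = 0.0129).

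UMIs of the mitochondrial genome, a list likewise added after values were seen, were a larger part in every IL1β mouse than in every vehicle mouse of the same genotype. They were 3.68% ± 0.0906 of gated UMIs in WT vehicle and 4.79% ± 0.524 in WT IL1β mice, 3.53% ± 0.278 in KO vehicle and 4.53% ± 0.0829 in KO IL1β mice (SD, n = 3). mt-Co1 and mt-Co2, subunits of cytochrome c oxidase, were called higher in KO (log2 differences 0.72 and 0.50, edgeR adjusted p = 0.0191 and 0.0264), and without the 17 cells also in WT (0.50 and 0.39, adjusted p = 0.0328 and 0.0332). In KO the nuclear-encoded complex I subunit Ndufb8 fell from 312, 414 and 337 to 152, 120 and 206 CPM (-1.11, adjusted p = 0.0314) and the cyclophilin gene Ppia from 2870, 4110 and 3616 to 1972, 1988 and 2367 (-0.74, adjusted p = 0.0297). Ndufb8 lost its call in 14 of 24 alternatives, and without the 17 cells Ppia was called in WT as well (-0.66, adjusted p = 0.0180). The share of mitochondrial UMIs was also one of the filters on cells, and its part in these results was not tested.

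**Figure D5:**
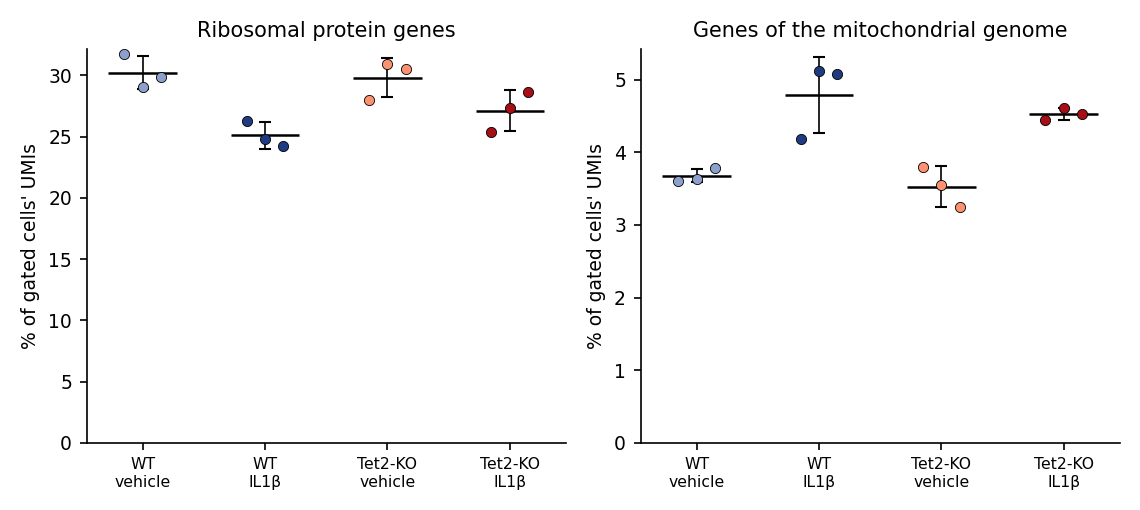
Percent of gated UMIs in 83 ribosomal protein genes (left) and in 13 genes of the mitochondrial genome (right). Points are mice, lines means and bars SD (n = 3 per group); ribosomal shares of the WT IL1β mice (24.2 to 26.3%) lay below those of the WT vehicle mice (29.1 to 31.8%).

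The genes that define the progenitors themselves did not pass the test in any comparison. Klf1 stood at 159, 52.8 and 110 CPM in WT vehicle, 86.9, 153 and 132 in WT IL1β, 90.9, 189 and 36.2 in KO vehicle and 78.3, 144 and 103 in KO IL1β mice, with IL1β differences of 0.13 (SE 0.50) in WT and -0.27 (SE 0.46) in KO. Gata1 ranged from 299 to 502 CPM and Gata2 from 443 to 1023 CPM over the 12 mice, as far as the rule lets them vary. Of the fixed genes Zfpm1, Tal1, Lmo2, Gfi1b, Nfe2, Itga2b, Car2, Kit, Cd34, Tfrc and Cpa3 none was called. The smallest adjusted p among them was 0.121, for the IL1β difference of Cpa3, a mast-cell carboxypeptidase also found in early progenitors, in WT (1.59, from 73.5, 84.5 and 42.3 to 290, 153 and 122 CPM). Epor and Vwf held too few counts for the test, with 69 and 29 UMIs.

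Tet2 itself also fell under the count filter. It stood at 36.8, 42.2 and 42.3 CPM in WT vehicle, 67.6, 61.2 and 70.9 in WT IL1β, 39.0, 14.5 and 84.4 in KO vehicle and 96.8, 120 and 79.2 in KO IL1β mice. The lowest and the highest of these values were both in KO mice. Counts taken at the 3′ end do not report a deletion further upstream and so do not check the genotype.

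The comparison of genotypes asked whether Tet2 loss changed these cells. With vehicle, and again with IL1β, 0 of 2525 genes were called by edgeR (0% called) and 0 by DESeq2, with 78 and 123 genes at an unadjusted p under 0.05. The interaction of genotype and IL1β likewise gave 0 (0% called), 0 by DESeq2 and 110 at an unadjusted p under 0.05. The median SE over all genes was 0.350 log2 units with vehicle and 0.357 with IL1β, and 0.504 for the interaction, which sets the size of a difference that could be detected at this depth.

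Fitted values of gene groups leaned one way without any member being called. Sex was not balanced between the genotypes under IL1β. Y-linked RNA without Xist was found in 99.8, 99.8 and 67.3% for WT IL1β mice 1, 2 and 3. It was found in 99.8, 0 and 0.135% for KO IL1β mice 2, 3 and 4, and the part of sex in these leans was not tested. Under IL1β, 33 of 34 tested G2 and mitosis genes were fitted lower in KO than in WT (median -0.59, all genes 0.00), and for 14 of them every KO mouse lay below every WT mouse, against 6.14% of all genes. Their summed level was 11269, 12775 and 11654 CPM in WT IL1β and 7186, 7382 and 9102 in KO IL1β mice, while the WT vehicle mice spanned 6822 to 11877 and the KO vehicle mice 5852 to 11514. Top2a, the topoisomerase of dividing cells, stood at 830, 1346 and 1226 CPM in WT IL1β and 544, 551 and 815 in KO IL1β mice (-0.80, SE 0.36, adjusted p = 1.000). The S phase genes leaned less by fitted values (10 of 25 fitted higher, median -0.05). For 4 of the 25 every KO mouse lay below every WT mouse, and for 0 above.

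Megakaryocyte genes leaned upward in the same comparison, 6 of 6 being fitted higher in KO than in WT under IL1β (median 0.67). Itga2b stood at 299, 122 and 152 CPM in WT IL1β and 410, 287 and 380 in KO IL1β mice (0.85, SE 0.34, adjusted p = 1.000), with overlap. The median of the list ended at 1.18 without WT IL1β mouse 1. Of 10 MHC class I genes 10 were fitted higher (median 0.35), which fell to 0.08 without KO IL1β mouse 2. The erythroid genes leaned the other way, with 7 of 10 fitted lower (median -0.32), and Car2 stood at 994, 1866 and 1996 CPM in WT IL1β and 1046, 790 and 1077 in KO IL1β mice (-0.71, SE 0.26, adjusted p = 1.000). Under vehicle 11 of 11 tested heat shock genes were fitted higher in KO (median 0.61) and 0 were called.

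Lists that the study itself examined in these mice are no independent evidence of direction. Of 14 tested immediate early and stress genes, 14 were fitted higher with IL1β in WT (median 1.08) and 12 in KO (median 0.61), with 0 called. Without the 17 cells Zfp36, whose protein promotes the decay of cytokine mRNA, was called higher in WT (2.80, SE 0.75, edgeR adjusted p = 0.0479). Summed over 17 such genes, 1 mouse of the first pool stood highest in each group, at 5257 CPM in WT vehicle, 13295 in WT IL1β, 9715 in KO vehicle and 10580 in KO IL1β. The other 8 mice held 1801 to 4761 CPM, WT IL1β mouse 2 of a first pool among them with 3287. Without WT IL1β mouse 1 the WT median was -0.45. A fit with the pool as a block was among the alternatives, but its counts are not given here and the pool's own effect on these levels was not tested. Egr1 stood at 1128, 253 and 491 CPM in WT vehicle and 1882, 245 and 344 in WT IL1β mice, with the first mouse of each the highest.

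Other lists held no called gene in any comparison of the main fit. Without the 17 cells Ftl1, the ferritin light chain gene of the iron handling list, was called lower with IL1β in KO (-1.02, SE 0.23, edgeR adjusted p = 0.0318). With IL1β the medians of 10 erythroid genes were 0.04 in WT and -0.45 in KO, those of 4 heme synthesis genes 0.18 and -0.88, those of 7 stem and multipotent genes 0.42 and 0.56, those of 6 interferon response genes -0.40 and -0.20 and those of 4 iron handling genes -0.40 and -0.87. The 12 tested lineage transcription factors had medians of 0.21 and 0.19, 3 DNA methylation enzymes -0.12 and -0.08, and 2 cytokine receptors 0.05 and 0.43. The granulocyte and monocyte list moved with the 14 neutrophil-rich cells, with medians of -2.19 in WT and -1.39 in KO that became 0.31 and 0.26 without the 17 cells. The 2 tested lymphoid and dendritic genes (medians -0.96 and 2.02) include Jchain, and the 2 tested basophil and mast-cell genes (0.99 and 0.62) are Lmo4 and Cpa3. No eosinophil gene was tested.

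Globin RNA was lower in both KO IL1β pools than in the other 6 pools. By mouse, KO IL1β overlapped both WT groups and lay below KO vehicle. At least 10 UMIs of the 4 adult globin genes were found in 12 of 151 WT vehicle cells (7.95%), 11 of 208 WT IL1β cells (5.29%), 13 of 162 KO vehicle cells (8.02%) and 0 of 144 KO IL1β cells, which allows a share of up to 2.08% by counting error alone, the cells of a group being no replicates of its treatment. Of these 36 cells 29 had no hashtag call, so the test over mice saw few of them. Per mouse the 4 globins summed to 1811, 87.0 and 156 CPM in WT vehicle, 418, 0 and 739 in WT IL1β, 113, 880 and 126 in KO vehicle and 67.5, 57.8 and 109 in KO IL1β. Without cells positive for both hashtags, the pools held 1713 and 2835 CPM of the 4 globins in WT vehicle, 1237 and 1929 in WT IL1β, 1529 and 1658 in KO vehicle and 82.3 and 98.3 in KO IL1β, both KO IL1β pools standing far below the other 6. With pools in place of mice (2 per group), Hba-a1 was lower in KO than in WT under IL1β by a log2 difference of -4.52 (SE 0.33, edgeR adjusted p = 3.6e-08) and Hbb-bs by -4.91 (SE 0.39, adjusted p = 9.5e-08), and the interaction was -4.20 for Hba-a1 and -4.45 for Hbb-bs. With IL1β in KO the pools differed by -4.80 for Hba-a1 (adjusted p = 1.1e-08), while in WT they differed by -0.59 (adjusted p = 0.314). In the test over mice Hba-a1 differed by -3.65 between genotypes under IL1β with an adjusted p of 1.000. In Car1-high cells of KO mice 3 of the 4 globins were fitted higher with IL1β (median 0.19) and 0 were called. The pools' fit also called Hspa1a (2.57, adjusted p = 0.00330) and Hspa1b (1.96, adjusted p = 0.0352) higher in KO than in WT under IL1β. In the test over mice these 2 genes differed by 2.42 and 1.54 and were not called. Globin transcripts are abundant in free RNA of marrow, and the part of free RNA or of red cells left after lysis was not tested.

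The same IL1β response was measured in Car1-high cells, the cells next to the gate on its erythroid side. All mice with at least 10 such cells were fitted. This added WT vehicle mouse 2 (10 cells) and WT IL1β mouse 4 (13 cells) to the 12 mice, so the WT results of gated and Car1-high cells rest on unlike sets of mice. In Car1-high cells 632 of 7830 genes were called in WT (8.07%) and 435 in KO (5.56%), at a median of 10979 UMIs per cell against 3284 in gated cells. Nfkbia differed by 3.52 in WT and 2.82 in KO, Tnfaip3 by 3.74 and 3.13, Cd69 by 3.01 and 2.48, Ier3 by 2.13 and 1.44 and Tsc22d3 by 1.59 and 1.35, and all 10 were called higher, as were 2.71% of all genes in WT and 1.61% in KO. Hist1h1e was called lower in both genotypes there (-1.31 and -0.86). Ribosomal protein genes were called lower for 56 of 80 in WT (median -0.42) and 35 of 80 in KO (median -0.33), against 5.36% and 3.95% of all genes.

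The difference between the cell sets was tested with both sums of a mouse in 1 model with the mouse as a block (6784 genes). In WT 6 genes were called (0.0884%) and in KO 3 (0.0442%), each with a lower IL1β response in gated cells. They were Camp, Jchain, Ngp, Chil3, Lcn2 and Ltf in WT and Camp, Ltf and Lcn2 in KO, all of them among the genes by which the 17 cells were recognised. Without those cells and the 47 Car1-high cells that met the same limits, 0 genes were called in WT and 1 in KO, Fam132a, which encodes the secreted protein adipolin (-2.04, SE 0.42, edgeR adjusted p = 0.0380). The response of Nfkbia in gated minus Car1-high cells was -0.20 (SE 0.47, adjusted p = 0.997) in WT and 0.55 (SE 0.49, adjusted p = 0.972) in KO, and that of Cd69 was 0.66 (SE 0.66) and 0.30 (SE 0.59). The response of Hist1h1e in WT differed by -1.06 (SE 0.49, adjusted p = 0.997).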

How the data were processed

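Droplet single-cell 3′ RNA libraries of lineage-depleted marrow were used, 8 pools of 2 hashtagged mice. The deposited UMI counts per gene and barcode, and the deposited hashtag counts, came from Cell Ranger 3.1.0 on mm10, and Seurat 3.2.3 is named in the submitters' processing notes. The authors removed cells under 750 genes or above 10% mitochondrial UMIs in their analysis, a filter applied here to the 121405 deposited barcodes. All deposited sample columns were used (0 left out).

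Hashtags were called in each pool with HTODemux (Seurat 5.3.0), and cells positive for both were left out of tests. As an alternative, cells with at least 10 hashtag UMIs were assigned by ratio, the larger count at least 3 times the smaller. No other doublet caller was run. Gated counts were summed per mouse. Mice with at least 10 gated cells were tested with edgeR 4.0.16 (TMM scaling, filterByExpr, quasi-likelihood F test, 1 fit over 4 groups, no block), with Benjamini-Hochberg adjustment over all genes. SE was derived from F and the log2 difference. Shares were compared by exact permutation tests, adjusted over 4 comparisons. DESeq2 1.42.0 was an alternative. Clusters used Leiden (leidenalg 0.10.2) on variable genes without the rule's genes. The scripts were tested on simulated data. Sums per mouse were taken as replicates, since mice are separate animals. In each group some tested mice shared a library, for which the main fit had no term. The sum of WT IL1β mouse 3 held cells of both sexes and so of more than 1 animal.

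The members and gene lists were chosen with earlier results of these data known. Named genes were a fixed set, and per comparison up to 10 called genes in each direction with the largest log2 difference and a mean of at least 20 CPM in the higher group, without sex-linked, mitochondrial, ribosomal protein, globin, immunoglobulin or rule genes. Genes named for a list, for the pools or for the stage comparison outside this rule were chosen after their values were seen. Some named genes are not reported here. Barcode depth was a median of 5914 UMIs per cell.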

Additional observations from a re-analysis of the deposited data

Results flagged for a closer look

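In KO vehicle mouse 2, 0.0794% of cells were gated, against 0.617, 0.646 and 0.667% in the other 3 mice of the group. Its gap to the nearest of these was 0.915 of the group's range, above Dixon's 95% limit for 4 samples. This mouse gave 1 gated cell among 1259, and the 3 other groups of mice showed no such gap. Chance flags about 1 in 20 such groups. With hashtags assigned by ratio the mouse had 51 gated of 7506 cells (0.679%), against 0.752 and 0.694% in mice 3 and 4, and mouse 1 had 62 cells in place of 4214 and gave no share.

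The IL1β effect differed between gated and Car1-high cells for 6 genes in WT, with log2 differences of -7.05 for Camp, -6.74 for Jchain, -5.11 for Ngp, -7.18 for Chil3, -4.98 for Lcn2 and -6.00 for Ltf. In KO it differed for Camp (-7.78), Ltf (-8.18) and Lcn2 (-4.91). Camp in gated cells stood at 1027, 8.70 and 2941 CPM in the WT vehicle mice and 39.4, 80.2 and 8.59 in the WT IL1β mice, and in Car1-high cells of the same mice at 85.9, 110 and 94.7 and at 654, 494 and 68.7. Cells with at least 100 UMIs of the neutrophil genes held 97.4, 0 and 98.8% of the neutrophil UMIs of the gated cells in those WT vehicle mice. Without such cells and those rich in Jchain in both cell sets, the difference was 0.08 for Camp and -1.14 for Jchain in WT, with adjusted p of 0.996 and 0.993 (edgeR). The cells left out were chosen by UMIs of these same genes, so this fit cannot serve as a test of the difference.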

How the results depend on the processing

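Nfkbia and Cd69 stayed past the threshold in both genotypes under every alternative that could test them. The other named calls were lost in some. Tnfaip3 in WT lost its call in 6 of 22 alternatives and in KO in 9 of 22, Ier3 in 10 of 23, Serpina3g in 10 of 23, Serinc3 in 17 of 24 in WT and 10 of 24 in KO, Rsrp1 in 7 of 24, Ndufb8 in 14 of 24, Ppia in 10 of 24, Fau in 5 of 24, Hist1h1e in 3 of 22, Tpt1 in 3 of 24 and Tsc22d3 in 3 of 23, each keeping its direction. Without WT IL1β mouse 3 the calls of Tnfaip3 (WT, adjusted p = 0.191, edgeR), Hist1h1e (0.0845) and Serpina3g (0.126) were lost. Without WT IL1β mouse 1 those of Ier3 (0.231) and Hist1h1e (0.0533) were lost, and without WT vehicle mouse 4 that of Tsc22d3 (0.0933).

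The 28 genes called in WT became 68 with no filter on low counts, 9 with the replicate number as a block, 62 with DESeq2, 78 with hashtags assigned by ratio, 12 after thinning to 3000 UMIs, 7 with all 16 mice and 56 without the 17 cells. Leaving out 1 mouse gave 8 to 65 (9 without WT vehicle 1, 16 without WT vehicle 4, 8 without WT IL1β 3, 65 without KO vehicle 1). The 10 in KO became 67 with no filter, 4 with the replicate number as a block, 3 with sex as a covariate, 56 with DESeq2, 77 by ratio, 106 with pools as replicates and 29 without the 17 cells. Leaving out 1 mouse gave 2 to 86 (20 and 19 without WT vehicle 1 and 3, 86 without KO vehicle 1, and 2 without KO vehicle 3 or 4 or any KO IL1β mouse).

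Between genotypes 0 genes became 13 with vehicle and 9 with IL1β with no filter, and 5 for the interaction. Leaving out 1 mouse gave 0 to 4 with vehicle (4 without KO vehicle 1) and 0 with IL1β and for the interaction. Under IL1β the replicate block gave 1, the sex covariate 1 and pools 6, and the interaction gave 1 with the sex covariate and 3 with pools. The 6 genes whose IL1β effect differed between gated and Car1-high cells in WT became 0 without the 17 cells and the 47 like them among Car1-high cells and 3 to 15 without 1 mouse (15 without WT vehicle 3, 3 and 13 without WT IL1β 1 and 3, 10 without KO vehicle 3). The 3 in KO became 1, and 0 to 8 (8 without WT vehicle 1 or 3, 6 without WT vehicle 4, 5 without WT IL1β 3 or KO vehicle 3, 1 without KO vehicle 1, 7 without KO vehicle 4, 0 without KO IL1β 2).

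Differences in share turned sign with 2 UMIs of each factor in all 4 comparisons (0.0234 and -0.0156 for IL1β in WT and KO, 0.0322 and -0.00691 for genotype with vehicle and IL1β), with pools for IL1β in WT (0.0130) and by ratio for IL1β in KO (-0.121). Leaving out 1 mouse gave -0.277 to -0.200 and -0.0388 to 0.345 for IL1β in WT and KO, and -0.341 to -0.146 and -0.0783 to 0.306 for genotype. Without KO IL1β 2 the KO effect was -0.0388 and the genotype difference under IL1β -0.0783. The cause was not tested for any of these.

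Replicate numbers did not pair the mice. Deviations of same-numbered mice correlated at -0.115 to 0.173 over 13 pairs, against -0.256 to 0.266 over 41 pairs of different number. This check does not address the pools, since mice of same-numbered pools are among the pairs of different number. The fit of genes with 2 UMIs of each factor could not be made, since no mouse had 10 such cells. All 16 mice, shares in mice with 10 or more gated cells, and leaving out the 17 cells were alternatives chosen after seeing the data.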
